A study of Caenorhabditis elegans with 9 samples.

Results

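The *pals* genes, named for a signature they share with the human ALS2CR12 protein, form a large and clustered family in *C. elegans*, and many of them belong to the intracellular pathogen response (IPR), the set of genes that worms switch on in the intestine when microsporidia or the Orsay virus invade their cells. The same response includes *cul-6*, which encodes a cullin, the scaffold of a ubiquitin ligase. CUL-6 acts with the Skp1-related adaptors SKR-3, SKR-4 and SKR-5, the RING protein RCS-1 and F-box proteins, and it improves survival of heat shock. A pair of *pals* genes controls the response, since PALS-22 represses it and PALS-25 activates it, and *pals-5* supplies the promoter of its common reporter strain. Levels of all these genes were compared here between worms with a knocked-down mitochondrial gene, worms with knocked-down histone genes and controls.

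The members were chosen by gene symbol. They are every gene in the count table whose WormBase symbol is *pals-* with a number, and *cul-6*, *skr-3*, *skr-4*, *skr-5*, *rcs-1* and *eol-1*, which gave 45 of the 46739 genes, 39 of them *pals* genes. The symbol rule uses no measured value. The group was, however, taken up because *pals-6* was known to be high in both treatments of these same libraries. The values of *pals-6* are therefore given as a description without a test. The counts of members called below include *pals-6*. These counts describe the group and are not independent evidence about it. One member, *pals-36*, is annotated as a pseudogene, and the other 44 as protein-coding.

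All worms were of the wild-type N2 strain, raised from the L1 stage on bacteria that express double-stranded RNA and collected at L4, the last larval stage. One group was fed *cco-1* RNAi, against a nuclear-encoded subunit of mitochondrial cytochrome c oxidase. Another was fed *his-3* RNAi, a clone against a histone H2A gene that also matches other H2A genes. The controls carried the empty vector (EV), and each group had 3 libraries of polyadenylated RNA from whole worms, so both treatments were set against the same 3 EV libraries.

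The libraries held 25129763 to 32017517 reads on genes. The gene *cox-5B*, under which the annotation lists *cco-1*, had a log2 fold change of -1.42 under *cco-1* RNAi and -0.42 under *his-3* RNAi, and *his-3* had -3.28 under *cco-1* RNAi and -0.68 under *his-3* RNAi (edgeR, adjusted p between 4.92e-14 and 6.44e-05). Reads that aligned to several places were not counted, and *his-3* is 1 of several similar H2A genes, so its values are not read as knockdown. By qRT-PCR the study saw no major change of core histone genes under *cco-1* RNAi. Whole worms hold many cell types, and less RNA per cell cannot be told apart from fewer cells of a type. All 7 intestinal markers were lower under *his-3* RNAi than in EV, with a median log2 fold change of -0.74, while 4 were higher and 3 lower under *cco-1* RNAi. Their summed normalized counts lay between 103983 and 108623 under *cco-1* RNAi, between 37144 and 43368 under *his-3* RNAi and between 62095 and 66512 in EV. Of 32 sperm markers tested, 30 were lower under *cco-1* RNAi and 11 higher under *his-3* RNAi. Of 4 cuticle collagen markers of the hypodermis, 3 were lower and 1 higher under *cco-1* RNAi, and 1 was higher and 1 lower under *his-3* RNAi. Their median log2 fold change was -2.36 under *cco-1* RNAi and 0.14 under *his-3* RNAi. The summed normalized counts of these 4 averaged 10157 under *cco-1* RNAi, 54275 under *his-3* RNAi and 60489 in EV. All 3 muscle markers were lower in both treatments, with a median of -0.39 under *cco-1* RNAi and -0.46 under *his-3* RNAi. Of 5 germline markers, 3 were lower under *cco-1* RNAi, and 3 were lower and 2 higher under *his-3* RNAi. Of 3 neuronal markers, 1 was higher in each treatment. Of all genes tested, 34.9% were higher and 35.9% lower under *cco-1* RNAi, and 26.9% higher and 27.9% lower under *his-3* RNAi. Counts near these shares, such as those of neuronal markers and of sperm markers under *his-3* RNAi, are not read as tissue shifts. The part of tissue make-up and developmental stage in the values below was not tested.

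Summed, the reads of the group were highest under *his-3* RNAi and lowest in EV. The 45 members took between 275 and 299 of every 1000000 gene reads under *cco-1* RNAi, between 600 and 646 under *his-3* RNAi and between 191 and 202 in EV. For the 39 *pals* genes alone, the range was 124 to 137 under *cco-1* RNAi, 346 to 370 under *his-3* RNAi and 74.4 to 80.0 in EV. Neither set overlapped between any of the 3 groups. A normalized count is a read count scaled to a library of average effective size. In these units the *pals* genes summed to 3738 ± 181 under *cco-1* RNAi, 9305 ± 180 under *his-3* RNAi and 2341 ± 63.5 in EV (SD, n = 3 each). A few genes carried most of the net increase of the 45 members under *cco-1* RNAi. The 4 members with the largest increase in normalized counts under *cco-1* RNAi, *skr-3*, *pals-23*, *pals-6* and *pals-24*, picked out for these values, summed to 4525 ± 169 under *cco-1* RNAi, 4548 ± 29.1 under *his-3* RNAi and 2684 ± 53.5 in EV. The other 41 members summed to 3619 ± 179 under *cco-1* RNAi, 11660 ± 243 under *his-3* RNAi and 3297 ± 81.5 in EV. Rises and falls partly cancelled in the *cco-1* RNAi sum of these 41. For example, *rcs-1* averaged 920 under *cco-1* RNAi and 1190 in EV, and *skr-5* averaged 169 under *cco-1* RNAi and 30.2 in EV.

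Many *pals* genes were close to silent in control worms. Under *cco-1* RNAi, 4 members had 0 reads and 13 had at most 3 over the 3 libraries, against 6 with 0 and 10 with at most 3 in EV. Under *his-3* RNAi the single member with at most 3 reads was *pals-12*, which had 0 reads in all 9 libraries. Of the 1191 exonic bases of *pals-12*, 1185 also belong to *pals-3* on the same strand, and reads that fall on both genes count for neither.

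**Figure D1:**
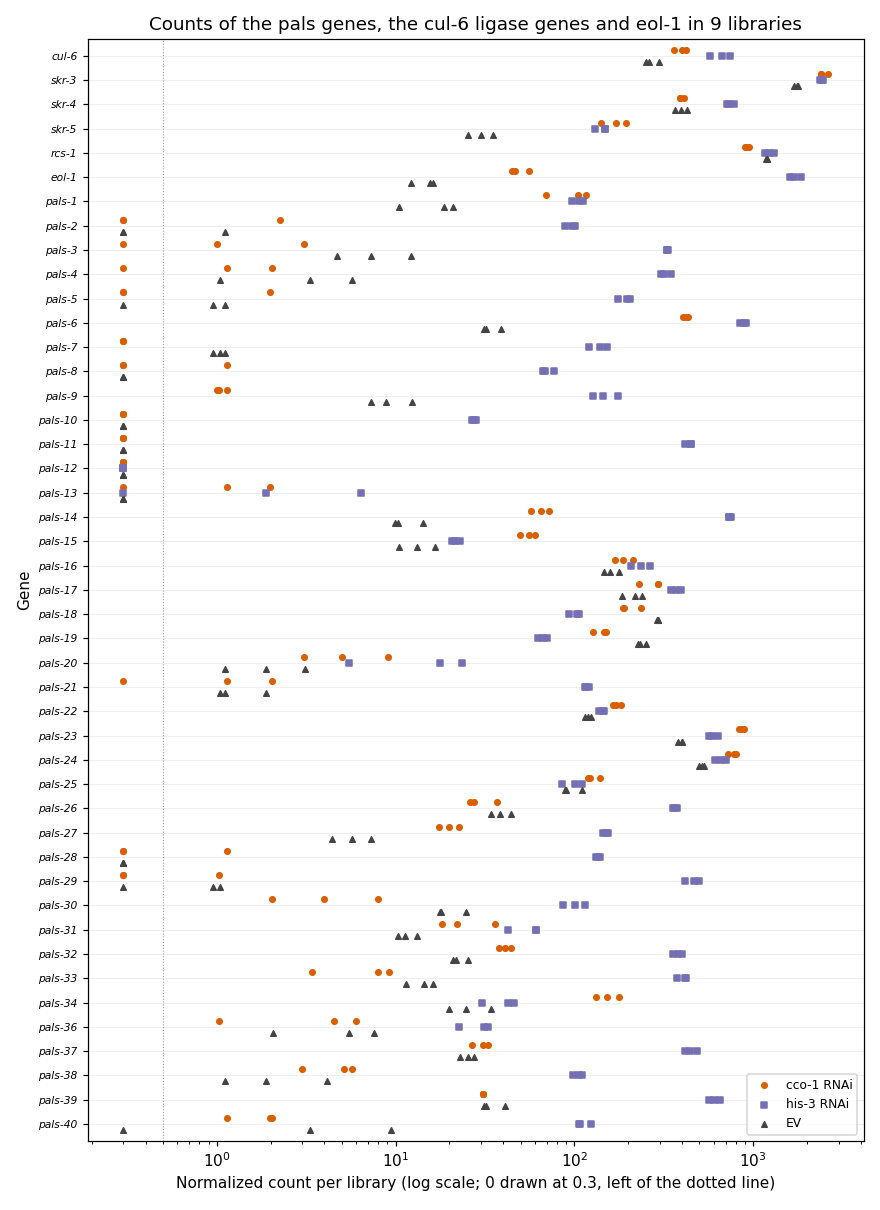
Normalized counts (log axis) of the 45 genes, 1 row per gene, with a point for each of the 3 libraries fed *cco-1* RNAi (circles), *his-3* RNAi (squares) and EV (triangles). Libraries with 0 reads are drawn left of the dotted line. The squares of 38 genes lie right of all their triangles, and the circles of 16 genes do.

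Under *his-3* RNAi, 38 of the 45 members had all 3 libraries above all 3 EV libraries, 2 had all 3 below and 5 overlapped. Among the 23808 genes with at least 1 read, 24.0% were above EV in this way and 22.5% below. Under *cco-1* RNAi, 16 members were above EV in every library, 9 below and 20 overlapped, against 28.2% of all genes above and 28.2% below.

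The filter of the study's methods, more than 5 reads in more than 3 libraries, let 33 members into the test. Under *his-3* RNAi 28 of them were higher than in EV, 2 lower and 3 neither, where 26.9% of the 16817 genes tested were higher and 27.9% lower (edgeR quasi-likelihood test, adjusted p under 0.05). Under *cco-1* RNAi 17 were higher, 7 lower and 9 neither, where 34.9% of all genes were higher and 35.9% lower. The median log2 fold change of the 33 genes was 2.31 under *his-3* RNAi and 0.40 under *cco-1* RNAi, and that of all genes tested was 0.02 under *his-3* RNAi and 0.01 under *cco-1* RNAi. When the log2 fold change also had to reach 2 or -2, 19 members were higher and 0 lower under *his-3* RNAi, where 3.23% of all genes were higher and 0.714% lower, since the lowest value, of *pals-19*, was -1.83. Under *cco-1* RNAi, 6 were higher and 3 lower past this fold, where 4.31% of all genes were higher and 6.61% lower. *pals-4* and *pals-40* passed the filter through the *his-3* RNAi libraries and EV replicate 3, and *pals-20* through the former and *cco-1* RNAi replicate 3. All 3 are among the 28 and the 19 and enter the medians. Since they passed mainly for their *his-3* RNAi reads, their calls under that treatment are a description only.

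The balance of calls over all genes depended on the scaling. Under *his-3* RNAi 4525 genes were higher and 4688 lower than in EV, whereas upper quartile scaling gave 5787 and 3741 and library size scaling 8373 and 2457, with 30 members higher and 2 lower by each of these scalings.

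The same fit compared the treatments with each other. Of the 33 members, 8 were higher and 22 lower under *cco-1* RNAi than under *his-3* RNAi, where 31.8% of all genes were higher and 36.8% lower, with a median log2 difference of -1.07 for the members and -0.05 for all genes. Over all genes 5354 were higher and 6190 lower, and by library size scaling 4115 and 7629, with 5 members higher and 22 lower. Genes that are silent outside 1 group cannot pass a filter that asks for more libraries than a group holds. The 12 members left out by it are described by their reads further on.

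**Figure D2:**
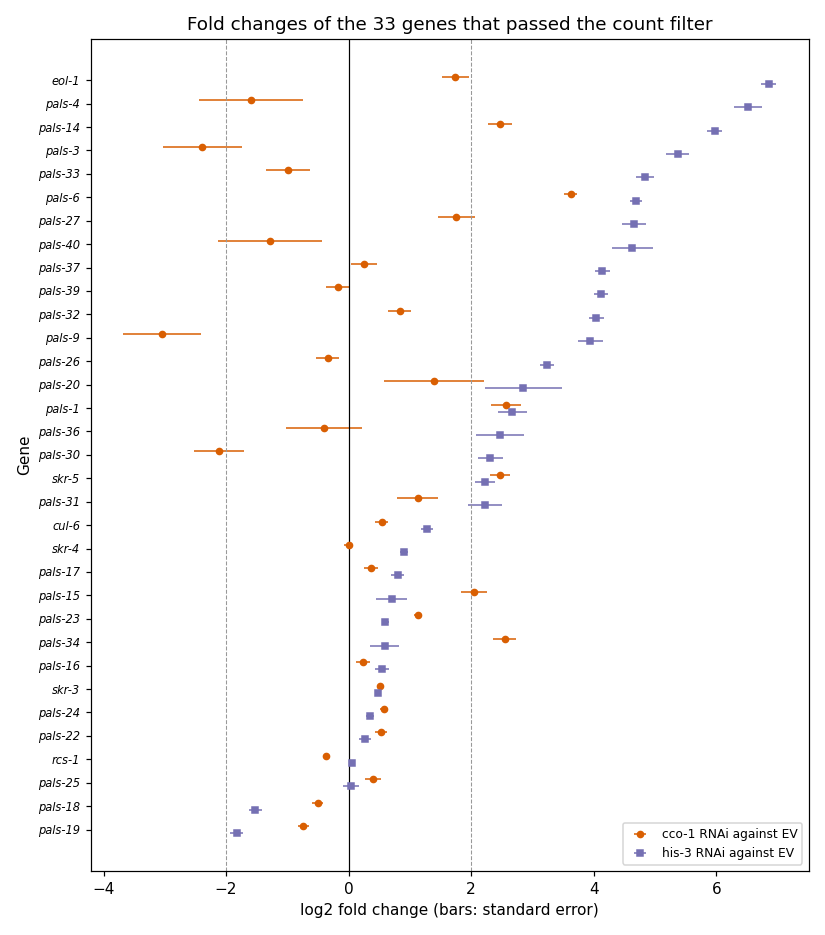
Log2 fold changes with standard errors of the 33 genes tested, for *cco-1* RNAi against EV (circles) and *his-3* RNAi against EV (squares), ordered by the *his-3* RNAi value. Dashed lines mark a log2 fold change of 2 in size. The 19 genes past the right line under *his-3* RNAi reach 6.85 for *eol-1*, and their circles range on both sides of 0.

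The gene *pals-6* (WBGene00007660, chromosome I, 13136390 to 13138544 on the minus strand of WBcel235) had 413, 404 and 380 reads under *cco-1* RNAi, 896, 989 and 942 under *his-3* RNAi, and 31, 35 and 33 in EV. The 3 groups lay far apart, and replicates of 1 group differed little. Its normalized count was 419 ± 14.3 under *cco-1* RNAi, 880 ± 36.1 under *his-3* RNAi and 34.0 ± 4.05 in EV (SD, n = 3 each), which is 12.3-fold the EV level under *cco-1* RNAi and 25.9-fold under *his-3* RNAi. Among the members tested it had the largest log2 fold change under *cco-1* RNAi, 3.62. That rank is not a result, since the group was taken up for the high values of *pals-6*. Under *his-3* RNAi its log2 fold change was 4.69, and *eol-1*, *pals-4*, *pals-14*, *pals-3* and *pals-33* had larger ones.

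Within the ubiquitin ligase, the cullin gene rose with both treatments. *cul-6* had normalized counts of 402, 418 and 360 under *cco-1* RNAi, 667, 575 and 739 under *his-3* RNAi, and 260, 251 and 299 in EV. The groups did not overlap. The log2 fold change against EV was 0.54 (SE 0.104, edgeR adjusted p = 0.000195) under *cco-1* RNAi and 1.29 (SE 0.0972, adjusted p = 9.85e-09) under *his-3* RNAi, and the level under *cco-1* RNAi was below that under *his-3* RNAi (-0.74, SE 0.0928, adjusted p = 2.11e-06).

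The 3 Skp1-related adaptors, which connect a cullin to its F-box proteins, differed in how they responded. *skr-5* had normalized counts of 141, 172 and 194 under *cco-1* RNAi, 148, 131 and 149 under *his-3* RNAi, and 30.1, 25.4 and 35.0 in EV. It was the ligase gene with the largest increase, at 2.47 (SE 0.165, edgeR adjusted p = 7.86e-10) under *cco-1* RNAi and 2.23 (SE 0.167, adjusted p = 8.96e-09) under *his-3* RNAi. The 2 treatments overlapped. The log2 difference of *cco-1* from *his-3* RNAi was 0.24 with a 95% interval of -0.02 to 0.50 (adjusted p = 0.0884). The adjusted p fell to 0.0468 with DESeq2 size factors and to 0.017 without *cco-1* RNAi replicate 1. Another gene, *lsy-27*, shares 59 exonic bases with *skr-5* on the opposite strand.

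*skr-3*, the member with the most reads per kilobase in every group, had normalized counts of 2409, 2629 and 2397 under *cco-1* RNAi, 2414, 2373 and 2448 under *his-3* RNAi, and 1754, 1772 and 1692 in EV. The increase was small but well outside the spread between replicates, at 0.51 (SE 0.0456, edgeR adjusted p = 3.36e-08) under *cco-1* RNAi and 0.47 (SE 0.0454, adjusted p = 1.89e-07) under *his-3* RNAi. The log2 difference between the treatments was 0.04, with a 95% interval of -0.05 to 0.13. *skr-4* had normalized counts of 410, 389 and 390 under *cco-1* RNAi, 780, 711 and 733 under *his-3* RNAi, and 426, 367 and 397 in EV. It rose under *his-3* RNAi (log2 fold change 0.90, SE 0.0676, adjusted p = 8.73e-09). Under *cco-1* RNAi its level lay within the range of EV, and the 95% interval of the log2 fold change was -0.15 to 0.15.

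The RING subunit showed no such increase. *rcs-1*, whose protein docks the ubiquitin-conjugating enzyme onto the ligase, had normalized counts of 900, 949 and 909 under *cco-1* RNAi, 1168, 1302 and 1230 under *his-3* RNAi, and 1197, 1193 and 1178 in EV. It fell by 0.37 on the log2 scale under *cco-1* RNAi (SE 0.0511, edgeR adjusted p = 6.54e-06). Under *his-3* RNAi the log2 fold change was 0.05, with a 95% interval of -0.05 to 0.16 (adjusted p = 0.387). Scaling by library size alone, which moved the median of all genes to 0.24, gave 0.27 (adjusted p = 0.000127), and upper quartile scaling gave 0.13 (adjusted p = 0.0324).

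The genes of the F-box proteins known to work with CUL-6 were not members but stood on the list of other response genes. *fbxa-158* had normalized counts of 39.9, 60.9 and 53.3 under *cco-1* RNAi, 411, 422 and 456 under *his-3* RNAi, and 5.18, 6.63 and 5.68 in EV, with log2 fold changes of 3.12 (SE 0.275, edgeR adjusted p = 2.92e-08) under *cco-1* RNAi and 6.18 (SE 0.175, adjusted p = 4.66e-14) under *his-3* RNAi. *fbxa-75* had 0, 0 and 0 reads under *cco-1* RNAi, 245, 255 and 239 under *his-3* RNAi, and 0, 0 and 1 in EV. It was not tested. Its *his-3* RNAi to EV ratio was 673, with an exact 95% counting interval of 120 to 26614. Such intervals cover counting error only.

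Across the rest of the cullin, Skp1-related and NEDD8 machinery, no larger share of genes was called in either direction against EV than among all genes. Of 31 such genes 23 were tested, of which 7 were higher and 6 lower under *cco-1* RNAi (of all genes 34.9% and 35.9%), and 3 higher and 4 lower under *his-3* RNAi (of all genes 26.9% and 27.9%). Between the treatments 8 were higher and 5 lower under *cco-1* RNAi than under *his-3* RNAi (of all genes 31.8% and 36.8%). Gaps from the shares of all genes are not read as a result in so few genes. The median log2 fold change of the 23 was 0.02 under *cco-1* RNAi and -0.02 under *his-3* RNAi. Of the other cullins, *cul-1* had mean normalized counts of 3208 under *cco-1* RNAi, 2917 under *his-3* RNAi and 3430 in EV, and *cul-3* had 4719 under *cco-1* RNAi, 4690 under *his-3* RNAi and 4845 in EV. The 3 genes of this list with the lowest p in either comparison were *ula-1*, a subunit of the enzyme that activates NEDD8, and the Skp1-related *skr-19* and *skr-21*. Under *cco-1* RNAi their log2 fold changes were 0.52, 0.49 and 1.03 (edgeR adjusted p between 1.02e-07 and 3.52e-06). Under *his-3* RNAi they were 0.12 (adjusted p = 0.0486), 0.38 (adjusted p = 1.68e-05) and 0.32 (adjusted p = 0.0677). The *ula-1* call under *his-3* RNAi was lost under most alternatives, among them DESeq2 (adjusted p = 0.209), DESeq2 size factors (0.123) and limma-voom (0.0564). It was also lost without any single library other than *his-3* RNAi replicate 2 (adjusted p between 0.0537 and 0.184). *skr-21* was called under *his-3* RNAi without EV replicate 2 (adjusted p = 0.0369), and under upper quartile (0.0252) and library size scaling (0.00342).

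**Figure D3:**
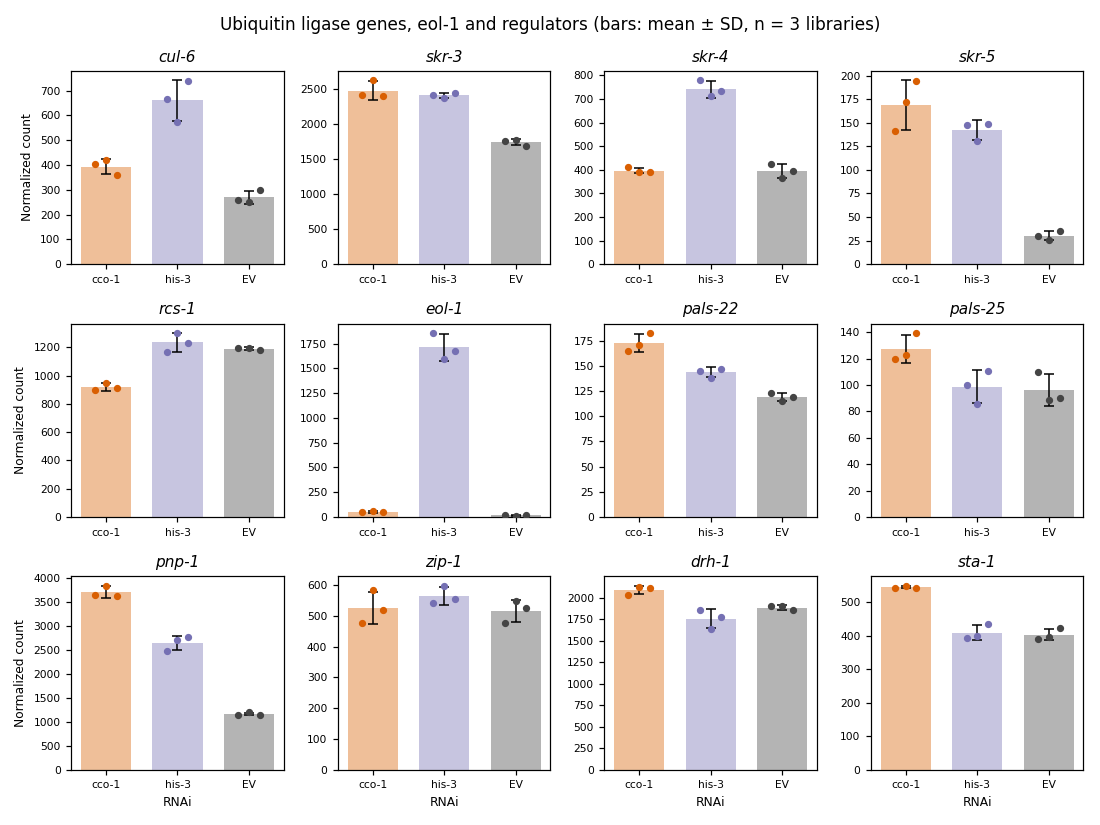
Normalized counts of the ligase genes, *eol-1*, *pals-22*, *pals-25* and 4 regulators outside the *pals* family, for *cco-1* RNAi, *his-3* RNAi and EV from left to right, each axis starting at 0. Bars show the mean, error bars the SD and points the 3 libraries. *skr-5* and *pnp-1* were higher with both treatments, *skr-4* and *eol-1* mainly under *his-3* RNAi, while *zip-1* overlapped in all 3 groups.

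The member with the largest fitted change was *eol-1*, a homolog of the mammalian DXO enzymes that remove faulty RNA caps and degrade the transcript. It had 44, 56 and 41 reads under *cco-1* RNAi, 1986, 1736 and 1780 under *his-3* RNAi, and 15, 11 and 17 in EV. Per kilobase of exon its level under *his-3* RNAi, 1418 normalized counts, was exceeded among the members by *skr-3* alone, at 3068, whereas in EV it ranked 23 of 45, at 12.1. The log2 fold change was 1.74 (SE 0.222, edgeR adjusted p = 2.67e-06) under *cco-1* RNAi and 6.85 (SE 0.118, adjusted p = 1.79e-16) under *his-3* RNAi, which is 3.33-fold under *cco-1* RNAi and 116-fold under *his-3* RNAi.

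The genes *pals-22* and *pals-25*, neighbours on chromosome III with opposite effects on the response, had the smallest log2 fold changes in size of the tested *pals* genes under *his-3* RNAi. Under *cco-1* RNAi both lay above the median of the tested *pals* genes, 0.36. *pals-22* had normalized counts of 165, 171 and 183 under *cco-1* RNAi, 145, 138 and 147 under *his-3* RNAi, and 123, 115 and 119 in EV. The repressor gene was higher in both treatments, by 0.53 under *cco-1* RNAi (SE 0.0963, edgeR adjusted p = 0.000113) and by 0.27 under *his-3* RNAi (SE 0.0974, adjusted p = 0.0292). The second of these calls was not stable, since it was lost under DESeq2 (adjusted p = 0.148), without a filter on low counts (adjusted p = 0.0763), and without *his-3* RNAi replicate 1 or 3 or any 1 of the EV libraries (adjusted p between 0.0589 and 0.0878).

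*pals-25* had normalized counts of 120, 123 and 140 under *cco-1* RNAi, 100, 85.5 and 110 under *his-3* RNAi, and 110, 88.4 and 89.9 in EV. The activator gene rose under *cco-1* RNAi (0.40, SE 0.131, edgeR adjusted p = 0.0115), a call that was lost without *cco-1* RNAi replicate 3 (adjusted p = 0.0534) or EV replicate 3 (adjusted p = 0.051). Under *his-3* RNAi the groups overlapped, and the log2 fold change was 0.04, with a 95% interval of -0.25 to 0.32. The genes beside them, *pals-23* and *pals-24*, have the most reads per kilobase of the family in EV. *pals-23* averaged 861 ± 24.9 under *cco-1* RNAi, 597 ± 33.7 under *his-3* RNAi and 394 ± 10.9 in EV, and *pals-24* averaged 766 ± 38.0 under *cco-1* RNAi, 660 ± 45.4 under *his-3* RNAi and 517 ± 15.7 in EV (normalized counts, SD, n = 3 each). Neither overlapped between the treatments and EV.

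A second regulatory group lies elsewhere on chromosome III, where PALS-17 restrains the response and PALS-16 and PALS-20 promote it. *pals-17* averaged normalized counts of 272 ± 37.4 under *cco-1* RNAi, 371 ± 24.0 under *his-3* RNAi and 214 ± 28.2 in EV (SD, n = 3 each). *pals-16* had 543 reads in all under *cco-1* RNAi, 755 under *his-3* RNAi and 472 in EV. *pals-20* stayed near the detection limit, with 16 reads in all under *cco-1* RNAi, 50 under *his-3* RNAi and 6 in EV, and 502 of its 988 exonic bases lie opposite the gene *Y82E9BR.5*.

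Their neighbours *pals-18* and *pals-19* were the only 2 members lower under *his-3* RNAi, and are singled out here after their values were seen. *pals-18* had normalized counts of 190, 236 and 187 under *cco-1* RNAi, 103, 93.8 and 107 under *his-3* RNAi, and 292, 292 and 289 in EV. *pals-19* had 146, 151 and 127 under *cco-1* RNAi, 70.3, 67.1 and 62.3 under *his-3* RNAi, and 250, 233 and 227 in EV. Both were lowest under *his-3* RNAi, and no libraries overlapped between groups. Under *cco-1* RNAi *pals-18* fell by 0.50 and *pals-19* by 0.74 on the log2 scale (edgeR adjusted p = 0.000149 and 3.22e-06). Under *his-3* RNAi they fell by 1.52 and by 1.83 (adjusted p = 2.59e-09 and 3.65e-10). The genes share 53 exonic bases on the same strand, so these are not fully separate measurements.

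Among the regulators outside the family, *pnp-1*, a purine nucleoside phosphorylase that represses the response, had the clearest change. Its normalized counts were 3645, 3834 and 3612 under *cco-1* RNAi, 2479, 2692 and 2753 under *his-3* RNAi, and 1144, 1193 and 1140 in EV, and it rose by 1.67 under *cco-1* RNAi (SE 0.0492, edgeR adjusted p = 1.3e-14) and by 1.19 under *his-3* RNAi (SE 0.0493, adjusted p = 4.58e-12). Over the list of 6 regulators, 4 were higher under *cco-1* RNAi and 3 under *his-3* RNAi at an adjusted p under 0.05. Of all genes, 34.9% were higher under *cco-1* RNAi and 26.9% under *his-3* RNAi, and counts of so few genes are a description only. Those higher under *his-3* RNAi were *pnp-1*, *lin-35* and *dpl-1*. *dpl-1* averaged normalized counts of 991 under *cco-1* RNAi, 1050 under *his-3* RNAi and 952 in EV. *sta-1*, a STAT protein that represses the response, had log2 fold changes of 0.44 (adjusted p = 1.74e-05) under *cco-1* RNAi and 0.02 (adjusted p = 0.827) under *his-3* RNAi. Under library size scaling the second value was 0.24 (adjusted p = 0.0068).

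*lin-35*, the Rb homolog, had 0.25 under *cco-1* RNAi (edgeR adjusted p = 0.00221) and 0.20 under *his-3* RNAi (adjusted p = 0.0128), the second of which was lost without *his-3* RNAi replicate 1 or 3 or EV replicate 1 (adjusted p between 0.0645 and 0.0836). The viral RNA sensor gene *drh-1* averaged normalized counts of 2087 under *cco-1* RNAi, 1755 under *his-3* RNAi and 1883 in EV. It was the last of the 4 genes raised under *cco-1* RNAi, by 0.15 (SE 0.0480, edgeR adjusted p = 0.0113), and its level under *cco-1* RNAi was above that under *his-3* RNAi by 0.25 (adjusted p = 0.00021). Its log2 fold change under *his-3* RNAi was -0.10 (adjusted p = 0.0877), and 0.12 under library size scaling (adjusted p = 0.0671). It was called lower with DESeq2 size factors (-0.13, adjusted p = 0.0348) and without *his-3* RNAi replicate 1 (-0.14, adjusted p = 0.0191). *zip-1*, the bZIP factor needed for part of the response, averaged 526 under *cco-1* RNAi, 565 under *his-3* RNAi and 516 in EV, with log2 fold changes of 0.03 (adjusted p = 0.762) under *cco-1* RNAi and 0.13 (adjusted p = 0.172) under *his-3* RNAi. The second passed the threshold under upper quartile (0.21, adjusted p = 0.0319) and library size scaling (0.35, adjusted p = 0.000767).

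The other *pals* genes have no individual role that is well established, and they differed most between the treatments. *pals-5*, the reporter gene, had 0, 2 and 0 reads under *cco-1* RNAi, 187, 215 and 218 under *his-3* RNAi, and 0, 1 and 1 in EV. It was thus read almost only in the *his-3* RNAi libraries. The *his-3* RNAi to EV ratio was 282, with an exact 95% counting interval of 77.8 to 2336, and no fold is given for *cco-1* RNAi, where both groups had at most 3 reads.

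*pals-11* had 477, 488 and 441 reads under *his-3* RNAi and 0 in every *cco-1* RNAi and EV library, at least 427-fold higher than EV when EV is set at a floor of 3 reads over the group. *pals-29* had 1, 0 and 0 reads under *cco-1* RNAi, 497, 544 and 442 under *his-3* RNAi, and 1, 0 and 1 in EV, a *his-3* RNAi to EV ratio of 675 (187 to 5581). These were the most strongly read of the 12 members that the filter left out.

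Of the remaining untested members, *pals-28*, *pals-8* and *pals-10* had 435, 228 and 88 reads in all under *his-3* RNAi and 0 in EV, at least 132-fold, 69.2-fold and 26.7-fold higher than EV. *pals-2* and *pals-7* had 308 and 442 reads under *his-3* RNAi and 1 and 3 in EV, ratios of 280 (50.0 to 11113) and 134 (45.6 to 653). *pals-21* and *pals-38* had 376 and 336 reads under *his-3* RNAi and 4 and 7 in EV, ratios of 85.6 (33.2 to 316) and 43.7 (21.0 to 110). *pals-13* had 3 reads in all under *cco-1* RNAi, 2, 7 and 0 under *his-3* RNAi, and 0 in EV, so that its libraries overlapped, and *pals-12* was not read. Under *cco-1* RNAi none of the 12 had more than 13 reads in all. Together the 12 summed to normalized counts of 9.22 ± 2.89 under *cco-1* RNAi, 1783 ± 65.5 under *his-3* RNAi and 6.47 ± 0.877 in EV (SD, n = 3 each).

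A set of tested genes was high under *his-3* RNAi and low, or lower than in EV, under *cco-1* RNAi. *pals-3* had 3, 1 and 0 reads under *cco-1* RNAi, 352, 356 and 352 under *his-3* RNAi, and 7, 11 and 5 in EV. *pals-9* had 1 read in each *cco-1* RNAi library, 155, 139 and 185 under *his-3* RNAi, and 7, 8 and 13 in EV. *pals-30* had 2, 4 and 7 reads under *cco-1* RNAi, 108, 124 and 91 under *his-3* RNAi, and 24, 16 and 19 in EV. In all 3 genes *cco-1* RNAi lay below EV and *his-3* RNAi far above it, without overlap. Under *cco-1* RNAi the log2 fold changes were -2.39 (SE 0.646), -3.04 (SE 0.631) and -2.12 (SE 0.408), with edgeR adjusted p of 0.00347, 0.000401 and 0.000206. Under *his-3* RNAi they were 5.37 (SE 0.191), 3.95 (SE 0.21) and 2.31 (SE 0.207), with adjusted p of 8e-08 or less.

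*pals-33* behaved alike, with 9, 8 and 3 reads under *cco-1* RNAi, 441, 455 and 399 under *his-3* RNAi, and 11, 13 and 17 in EV. It had a log2 fold change of -0.99 (SE 0.353, edgeR adjusted p = 0.0197) under *cco-1* RNAi, a call that was lost without *cco-1* RNAi replicate 3 (adjusted p = 0.11) or EV replicate 3 (adjusted p = 0.0737), and 4.83 (SE 0.149, adjusted p = 1.26e-13) under *his-3* RNAi. *pals-4* and *pals-40* had so few reads outside *his-3* RNAi that *cco-1* RNAi could not be set apart from EV. *pals-4* had 2, 0 and 1 reads under *cco-1* RNAi, 372, 332 and 336 under *his-3* RNAi, and 1, 3 and 6 in EV. *pals-40* had 2, 2 and 1 under *cco-1* RNAi, 133, 117 and 112 under *his-3* RNAi, and 0, 3 and 10 in EV. Their log2 fold changes under *cco-1* RNAi were -1.59 (edgeR adjusted p = 0.102) and -1.28 (adjusted p = 0.19). Under *his-3* RNAi they were 6.51 and 4.63 (adjusted p = 5.19e-13 and 5.16e-09). Both genes passed the filter through the *his-3* RNAi libraries and EV replicate 3, so their *his-3* RNAi values are a description only. Without EV replicate 1, which had the fewest reads on both, the *cco-1* RNAi values passed the threshold (adjusted p = 0.0397 and 0.0239), and without EV replicate 3 that of *pals-40* was 0.11.

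Neighbours on chromosome V had levels near those of EV under *cco-1* RNAi and were many times higher under *his-3* RNAi. *pals-37* had 26, 33 and 27 reads under *cco-1* RNAi, 519, 480 and 441 under *his-3* RNAi, and 22, 23 and 29 in EV. *pals-39* had 30, 31 and 27 under *cco-1* RNAi, 605, 708 and 636 under *his-3* RNAi, and 30, 29 and 43 in EV. The log2 fold changes under *cco-1* RNAi were 0.25 (edgeR adjusted p = 0.322) and -0.18 (adjusted p = 0.443), and those under *his-3* RNAi were 4.14 and 4.12 (adjusted p = 7.88e-14 and 2.27e-14). An antisense RNA gene, *anr-30*, lies opposite 925 of the 2351 exonic bases of *pals-37*.

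Another set rose with both treatments. *pals-14* had 56, 72 and 57 reads under *cco-1* RNAi, 806, 792 and 775 under *his-3* RNAi, and 10, 9 and 15 in EV. *pals-27* had 17, 20 and 20 under *cco-1* RNAi, 160, 157 and 163 under *his-3* RNAi, and 7, 4 and 6 in EV. *pals-1* had normalized counts of 105, 117 and 69.2 under *cco-1* RNAi, 97.4, 107 and 111 under *his-3* RNAi, and 18.7, 21.0 and 10.4 in EV. For *pals-14* and *pals-27* the 3 groups were well separated, under *his-3* RNAi highest, whereas for *pals-1* the treatments overlapped.

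The log2 fold changes of *pals-14* were 2.46 (SE 0.197) under *cco-1* RNAi and 5.98 (SE 0.124) under *his-3* RNAi, those of *pals-27* were 1.76 (SE 0.305) under *cco-1* RNAi and 4.66 (SE 0.195) under *his-3* RNAi, and those of *pals-1* were 2.57 (SE 0.248) under *cco-1* RNAi and 2.67 (SE 0.241) under *his-3* RNAi, with edgeR adjusted p of 7.45e-05 or less. *cco-1* RNAi lay below *his-3* RNAi by a log2 difference of -3.51 for *pals-14* and -2.90 for *pals-27* (adjusted p = 3.44e-15 and 3.38e-11). For *pals-1* that difference was -0.10, with a 95% interval of -0.46 to 0.25.

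*pals-34* and *pals-15* were highest under *cco-1* RNAi. *pals-34* had normalized counts of 151, 177 and 133 under *cco-1* RNAi, 45.9, 30.4 and 42.5 under *his-3* RNAi, and 34.2, 19.9 and 24.6 in EV. *pals-15* had 60.4, 55.9 and 49.9 under *cco-1* RNAi, 21.5, 23.0 and 20.8 under *his-3* RNAi, and 16.6, 13.3 and 10.4 in EV. The *cco-1* RNAi libraries stood above all others for both genes.

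The log2 fold changes under *cco-1* RNAi were 2.55 (SE 0.192, edgeR adjusted p = 3.91e-09) for *pals-34* and 2.05 (SE 0.215, adjusted p = 2.58e-07) for *pals-15*. The differences from *his-3* RNAi were 1.96 (SE 0.173, adjusted p = 3.04e-08) and 1.35 (SE 0.189, adjusted p = 8.15e-06). Under *his-3* RNAi both lay near the threshold, at 0.59 (adjusted p = 0.0524) and 0.70 (adjusted p = 0.0281). *pals-34* passed it under 8 alternatives, among them those without *cco-1* RNAi replicate 2 or 3, *his-3* RNAi replicate 2 or EV replicate 1 (adjusted p between 0.019 and 0.0496). The *pals-15* call was lost under 5, among them those without *his-3* RNAi replicate 2 or EV replicate 2 or 3 (adjusted p between 0.0618 and 0.144).

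The tested *pals* genes not yet described all had higher means under *his-3* RNAi than in EV. *pals-32* averaged normalized counts of 40.9 under *cco-1* RNAi, 379 under *his-3* RNAi and 22.8 in EV, and *pals-26* averaged 30.2 under *cco-1* RNAi, 364 under *his-3* RNAi and 38.9 in EV. *pals-31* averaged 25.3 under *cco-1* RNAi, 54.9 under *his-3* RNAi and 11.7 in EV, and the pseudogene *pals-36* averaged 3.85 under *cco-1* RNAi, 28.9 under *his-3* RNAi and 5.06 in EV. None of these 4 had a *his-3* RNAi library within the range of EV.

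Members that lie next to each other were also summed. Joined where they lay within 20 kb of each other, 34 *pals* genes formed 6 clusters on chromosomes I, III, IV and V, and 11 members lay alone. The largest, on chromosome I from 13083321 to 13144623, held 14 genes in 61.3 kb, among them *pals-5*, *pals-6*, *pals-11* and *pals-14*. Its summed normalized count was 545 ± 7.88 under *cco-1* RNAi, 3407 ± 1.86 under *his-3* RNAi and 81.9 ± 7.01 in EV (SD, n = 3 each), a ratio to EV of 6.66 under *cco-1* RNAi and 41.6 under *his-3* RNAi. *pals-6* held 419 of the 545 under *cco-1* RNAi, while its neighbours *pals-9* and *pals-14* on either side averaged 1.05 and 64.6.

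The cluster of *pals-22* to *pals-25* was the most expressed in EV and changed least of the clusters on the ratio scale under *his-3* RNAi apart from that of *pals-16* to *pals-21*. It summed to 1928 ± 46.9 under *cco-1* RNAi, 1499 ± 53.2 under *his-3* RNAi and 1126 ± 34.9 in EV. That of *pals-16* to *pals-21* and *pals-40* summed to 816 ± 88.6 under *cco-1* RNAi, 1019 ± 63.1 under *his-3* RNAi and 909 ± 30.5 in EV, and mixed genes that were lower (*pals-18*, *pals-19*) with genes that were read mainly under *his-3* RNAi (*pals-21*, *pals-40*). The other clusters were low in EV. *pals-26* to *pals-28* summed to 50.6 under *cco-1* RNAi, 649 under *his-3* RNAi and 44.7 in EV, and *pals-36* to *pals-39* to 69.3 under *cco-1* RNAi, 1188 under *his-3* RNAi and 67.3 in EV. *pals-29* and *pals-30* on chromosome IV summed to between 3.07 and 7.95 under *cco-1* RNAi, between 503 and 614 under *his-3* RNAi and between 17.7 and 25.9 in EV, the one of these clusters in which every *cco-1* RNAi library lay below EV.

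**Figure D4:**
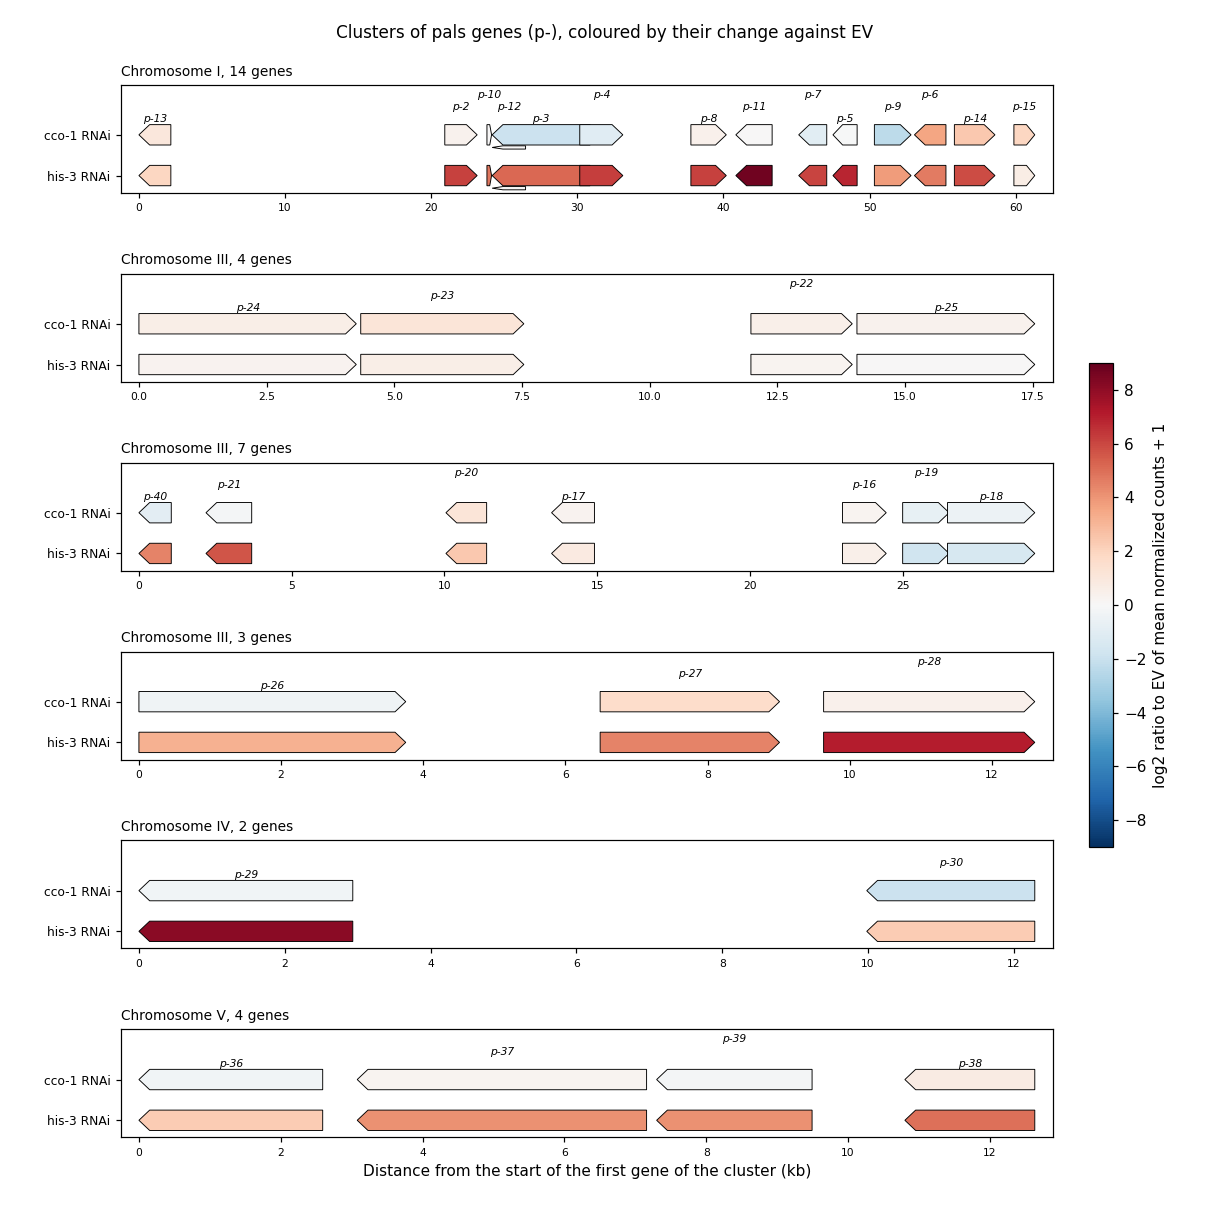
The 6 clusters of *pals* genes (p- stands for *pals-*) drawn to scale in kb from the start of the first gene of each, with arrows in the direction of transcription; the thin arrow is *pals-12*. Colour gives the log2 ratio to EV of the mean normalized counts plus 1, for *cco-1* RNAi (upper row) and *his-3* RNAi (lower row). The chromosome I cluster of 14 genes is mostly dark red under *his-3* RNAi, whereas under *cco-1* RNAi *pals-6* is the highest, at 3.58, and the cluster of *pals-22* to *pals-25* is pale in both rows.

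Protein-coding genes that lie between or overlap the members of a cluster were looked up for their position. The pair *pals-29* and *pals-30* was left out. Of 9 such genes 7 were tested. Under *cco-1* RNAi 1 was higher than in EV and 3 lower (of all genes 34.9% and 35.9%), with a median log2 fold change of -0.23. Under *his-3* RNAi 4 were higher and 2 lower (of all genes 26.9% and 27.9%), with a median of 0.72. Counts of so few genes are a description only. The 4 that were higher under *his-3* RNAi were *C17H1.2* (5.13), *fbxa-138* (3.07), *Y82E9BR.6* (1.69) and *B0284.3* (0.72), of which *Y82E9BR.6* was also higher under *cco-1* RNAi (1.84). The value of *C17H1.2* (SE 0.850) rests on few reads: 0, 6 and 3 under *cco-1* RNAi, 25, 13 and 14 under *his-3* RNAi, and 0, 0 and 1 in EV. It passed the filter through the *his-3* RNAi libraries and 1 *cco-1* RNAi library. It shares 114 exonic bases with *pals-13* on the same strand. *Y82E9BR.5* was lower in both treatments, with -0.28 under *cco-1* RNAi and -0.42 under *his-3* RNAi, and *Y26D4A.21* was lower under *cco-1* RNAi (-1.27). *fbxa-138*, a gene of the F-box family between *pals-21* and *pals-20*, had 45 reads in all under *cco-1* RNAi, 499 under *his-3* RNAi and 54 in EV. *C29F9.2*, between *pals-23* and *pals-22*, was lower in both treatments, with normalized counts of 111, 93.8 and 99.9 under *cco-1* RNAi, 167, 140 and 124 under *his-3* RNAi, and 563, 537 and 520 in EV.

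The remaining genes of the response outside the members were, like many *pals* genes, read mainly under *his-3* RNAi. Of the list of 9, 7 were found in the table. *F26F2.1* had 14, 15 and 8 reads under *cco-1* RNAi, 2268, 2540 and 2245 under *his-3* RNAi, and 13, 5 and 18 in EV. Its log2 fold change was 0.07 (SE 0.358, edgeR adjusted p = 0.865) under *cco-1* RNAi and 7.46 (SE 0.131, adjusted p = 1.88e-16) under *his-3* RNAi. Its *cco-1* RNAi libraries thus lay within the range of EV.

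Its neighbours *F26F2.3* and *F26F2.4*, not tested, had 8 and 7 reads in all under *cco-1* RNAi, 5124 and 3237 under *his-3* RNAi, and 8 and 3 in EV, ratios of *his-3* RNAi to EV of 583 (296 to 1352) and 983 (336 to 4767). *chil-27*, a chitinase-like gene of the response to oomycetes, had 1, 0 and 1 reads under *cco-1* RNAi, 38, 46 and 35 under *his-3* RNAi, and 1, 3 and 0 in EV. *trpl-5*, named for its likeness to TRP channels, had log2 fold changes of -1.13 (edgeR adjusted p = 0.012) under *cco-1* RNAi, lost without *cco-1* RNAi replicate 2 (adjusted p = 0.0592), and 2.93 (adjusted p = 1.97e-09) under *his-3* RNAi. Summed, the 7 genes had normalized counts of 75.4 ± 12.2 under *cco-1* RNAi, 5581 ± 162 under *his-3* RNAi and 35.0 ± 5.44 in EV (SD, n = 3 each).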

How the data were processed

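Polyadenylated RNA of whole worms was sequenced in 9 stranded libraries. Nothing in the sources used here says whether the replicates came from separate cultures, so p-values measure only the spread between these samples, which may be technical. STAR 2.5.3a on WBcel235 and HTSeq are the aligner and counter the authors name, and what they deposited are raw counts for 46739 genes. HTSeq's 5 summary lines were left out of the tests. Its strand setting is not given in the sources used here, so reads of overlapping genes on opposite strands may be mixed. Reads aligned to several places, 6.30 to 7.27% of the reads of a library, were not counted, so near-identical copies are uncertain. Groups came from the labels.

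Symbols and positions came from the gene tables and annotation supplied for WBcel235 (*pals-36* was matched through its RefSeq locus tag). The study's filter (over 5 reads in over 3 libraries) left 16817 genes. Counts were scaled by TMM and fitted with edgeR 4.0.16 in R 4.3.3, with 1 mean per group over 9 libraries, a prior count of 0.125 and quasi-likelihood F tests, and p-values were adjusted by Benjamini-Hochberg over all genes tested. edgeR was used because the table holds counts, where the study's methods name limma. Standard errors were computed from F as the size of the log2 fold change over its square root. Replicates varied by a biological coefficient of 4.92%, so replicate spread limits abundant genes and counting error those with few reads. The procedure was tested on simulated data. Ratios of genes with at most 10 EV reads carry exact 95% intervals, and a group at 0 was set to 3 reads.

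The members, lists and tests were chosen with earlier results of these data known. The text names the ligase genes, *eol-1*, *pals-5*, *pals-6*, *pals-22*, *pals-25*, in each comparison with EV the 8 other *pals* genes with the largest called change averaging 20 or more normalized counts, and the 3 genes with the lowest p of each other list. Outside this rule, the RNAi targets, *drh-1*, *zip-1* and the genes looked up between cluster members are given with log2 fold changes. Further genes are given by their counts, or are said to be chosen afterwards. Alternatives were other scalings (DESeq2 size factors, upper quartile, library size), DESeq2 1.42.0, limma-voom (limma 3.58.1), other filters, a fold threshold, a prior count of 2, a replicate block, only the libraries compared, and leaving out each library. Promoter sequences were not used here, and the planned motif search was not run.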

Additional observations from a re-analysis of the deposited data

Results flagged for a closer look

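Reads outside annotated genes are not part of the comparisons above. Their share was 1.04% under *his-3* RNAi on average (0.969 to 1.13%), 0.752% under *cco-1* RNAi (0.715 to 0.797%) and 0.767% in EV (0.746 to 0.785%), so that every *his-3* RNAi library lay above every EV library (n = 3 each). What these reads hold, and whether they bear on the *pals* genes, was not tested.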

How the results depend on the processing

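The counts of members called moved by over 1.5 times under few alternatives. With the fold threshold, 6 were higher and 3 lower under *cco-1* RNAi against EV, 0 were lower under *his-3* RNAi against EV, and 0 were higher and 14 lower under *cco-1* against *his-3* RNAi. With library size scaling, 5 were higher under *cco-1* than under *his-3* RNAi, and this scaling moved the median of all genes by 0.10 under *cco-1* RNAi, 0.24 under *his-3* RNAi and -0.17 between them. When single libraries were left out, the counts higher and lower were 15 to 17 and 6 to 9 under *cco-1* RNAi, 26 to 29 and 2 to 2 under *his-3* RNAi, and 6 to 9 and 20 to 22 between the treatments. A filter of more than 5 reads in at least 3 libraries, chosen after seeing the data, let in members through the *his-3* RNAi libraries alone, so no count is read from it. Of 2381 alternative values of single genes, 2277 had the same direction and side of the threshold, 49 lost the call, 26 gained it and 29 changed sign. The sign changes were in values that were not called, of which *pals-40* (-1.28) and *pals-36* (-0.40) were not near 0. *skr-4* under *cco-1* RNAi gave 0.0147 and 0.0148 with DESeq2's size factors and test, 0.0885 with upper quartile, 0.0947 with library size, 0.0018 with limma-voom, 0.0081 with the CPM filter, 0.0015 with the replicate block and -0.0508 to 0.0547 without single libraries. *skr-3* between the treatments gave -0.0845 with library size and -0.0051 to 0.0746 without single libraries. *sta-1* under *his-3* RNAi gave -0.0092 and -0.0091 with DESeq2's size factors and test and -0.0390 to 0.0548 without single libraries. *drh-1* under *his-3* RNAi gave 0.119 with library size. Without single libraries, *zip-1* under *cco-1* RNAi ranged over -0.0531 to 0.0941, *pals-25* under *his-3* RNAi ranged over -0.0487 to 0.133, *pals-1* between the treatments over -0.257 to 0.0795, and under *cco-1* RNAi *pals-40* ranged over -1.85 to 0.11, *pals-36* over -0.897 to 0.0505 and *F26F2.1* over -0.24 to 0.42. The cause was not tested.

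Replicate numbers gave no pairing. Correlations of deviations from group means lay between -0.04 and 0.05 for libraries of 1 number and between -0.07 and 0.07 for others, and 3 of the 9 libraries correlated best with their own number. With the replicate block, 17 members were higher and 7 lower under *cco-1* RNAi and 28 higher and 2 lower under *his-3* RNAi, as without it.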
